A study of Mus musculus with 10 samples.

Results

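The 9 Hedgehog pathway genes Shh, Ihh, Dhh, Ptch1, Hhip, Smo, Gli1, Gli2 and Gli3 were located in mm9 by the GENCODE vM1 annotation, 9 of 22367 protein-coding genes. Each gene was taken with its body plus 5 kb on each side, and every site of 4 deposited ChIP-seq lists that shared at least 1 base with this window was assigned to it. ChIP-seq sequences the DNA that an antibody pulls down with a protein or a histone mark. Suz12-TAP (FlagM2 antibody) and H3K27me3 were each profiled with 1 library from mouse ESCs expressing scramble shRNA and 1 from ESCs expressing Pcl3 shRNA, both of the BayGenomics gene trap line XG122 with genotype Suz12 Suz12TAP/+. In these heterozygous cells 1 Suz12 allele carries the TAP tag, a His and Flag tag, in the scramble cells too, and Suz12 levels were described as moderately above wild type. Pcl3-TAP was profiled in E14 ESC clones that carry a tagged Pcl3 and Pcl3 shRNA 6 or 7 against the endogenous gene, with 1 FlagM2 library for each shRNA. A single Pcl3 site list is given, and the sources used here do not say whether it was called on both libraries together or on 1 of them. The lists hold 1 p-value for each site and no read counts, so the depth behind a site, fold changes and the spread between cultures cannot be taken from them, and no difference below was tested across samples.

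Hedgehog ligands are secreted signals that pattern the neural tube, limb, skeleton and gonad. They bind Ptch1, which in their absence holds the membrane protein Smo inactive, and active Smo changes the Gli transcription factors from repressors to activators. Suz12 is a core subunit of Polycomb repressive complex 2 (PRC2), which trimethylates lysine 27 of histone H3 (H3K27me3) at silent developmental genes, often at CpG islands. Pcl3 is a Polycomb-like protein that binds PRC2, and the knockdown asks at which sites Suz12 falls when Pcl3 is reduced. The paper reports that the knockdown also lowered Suz12 mRNA and protein and raised the proportion of differentiated cells. It proposes that lower Suz12 levels may account for part of the reduced binding. A depleted site is therefore not by itself a measure of local dependence on Pcl3.

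The promoter sequence differed widely among the members, and 4 are shown because they span the range of CpG content and of Suz12 behaviour described below. Each is 300 bases of mm9 on the strand of the gene, with 250 bases before the annotated start and the start at the next base, and capitals mark CpG dinucleotides. They lie at chr5:28793592-28793891 on the minus strand (Shh), chr1:74998197-74998496 on the minus strand (Ihh), chr1:120950147-120950446 on the minus strand (Gli2) and chr13:15554818-15555117 on the plus strand (Gli3).
Shh: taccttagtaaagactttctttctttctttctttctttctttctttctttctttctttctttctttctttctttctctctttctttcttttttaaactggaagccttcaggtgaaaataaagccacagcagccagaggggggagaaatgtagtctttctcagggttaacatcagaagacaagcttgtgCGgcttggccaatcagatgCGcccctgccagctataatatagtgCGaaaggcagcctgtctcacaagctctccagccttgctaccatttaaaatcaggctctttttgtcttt
Ihh: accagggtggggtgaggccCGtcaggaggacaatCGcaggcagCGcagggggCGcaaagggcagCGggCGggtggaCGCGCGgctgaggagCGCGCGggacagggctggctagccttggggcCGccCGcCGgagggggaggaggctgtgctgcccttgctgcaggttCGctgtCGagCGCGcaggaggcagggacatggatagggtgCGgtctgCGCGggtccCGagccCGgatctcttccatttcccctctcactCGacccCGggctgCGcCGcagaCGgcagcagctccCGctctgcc
Gli2: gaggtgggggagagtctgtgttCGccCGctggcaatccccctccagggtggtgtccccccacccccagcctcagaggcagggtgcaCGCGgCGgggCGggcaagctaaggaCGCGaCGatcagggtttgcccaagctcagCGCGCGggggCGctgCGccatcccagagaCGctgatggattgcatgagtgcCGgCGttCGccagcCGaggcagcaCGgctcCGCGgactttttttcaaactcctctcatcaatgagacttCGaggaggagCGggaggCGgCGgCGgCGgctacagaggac
Gli3: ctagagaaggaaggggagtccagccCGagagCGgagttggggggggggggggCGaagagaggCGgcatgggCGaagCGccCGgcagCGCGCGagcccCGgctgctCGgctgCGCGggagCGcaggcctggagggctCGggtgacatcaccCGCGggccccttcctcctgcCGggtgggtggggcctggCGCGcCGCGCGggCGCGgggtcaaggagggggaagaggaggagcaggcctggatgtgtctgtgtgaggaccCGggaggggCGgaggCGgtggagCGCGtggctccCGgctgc
The Shh stretch holds 3 CpG and has a GC content of 41.0%, whereas the stretches of Ihh, Gli2 and Gli3 hold 30, 28 and 32 CpG.

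All 9 members had a Suz12 site in scramble cells, against 28.8% of all protein-coding genes under the same rule. A site of the Suz12-depleted list, that is a Suz12 site with fewer reads after Pcl3 knockdown, was found at 7 members (background 20.7%), a Pcl3 site at 8 (background 14.7%) and a site of decreased H3K27me3 at 2 (background 3.13%). Among genes that had a Suz12 site, 71.7% had a depleted site, 47.7% a Pcl3 site and 10.5% an H3K27me3-depleted site. Ihh and Dhh were in all 4 lists, as were 2.24% of all genes. Long genes offer longer windows, so the counts were repeated within 5 kb of the annotated start, where 9 members had a Suz12 site (background 24.6%), 6 a depleted site (background 17.5%), 7 a Pcl3 site (background 12.5%) and 2 an H3K27me3-depleted site (background 2.09%). The windows of the 9 genes held 16 Suz12 sites, 10 of them in the depleted list (all Suz12 sites, 64.5%), 13 Pcl3 sites and 3 H3K27me3-depleted sites. Of 8 genes expressed in ESCs that were looked up in the same way, Esrrb and Klf4 had Suz12 sites, each including a depleted site. Pou5f1, Nanog, Sox2, Zfp42, Tdgf1 and Dppa5a had no Suz12 site, and Pcl3 sites were found at Esrrb and Sox2. The Suz12 count, 2 of 8, is near the background of 28.8%. Lists without expression values therefore do not check the cell type.

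**Figure D1:**
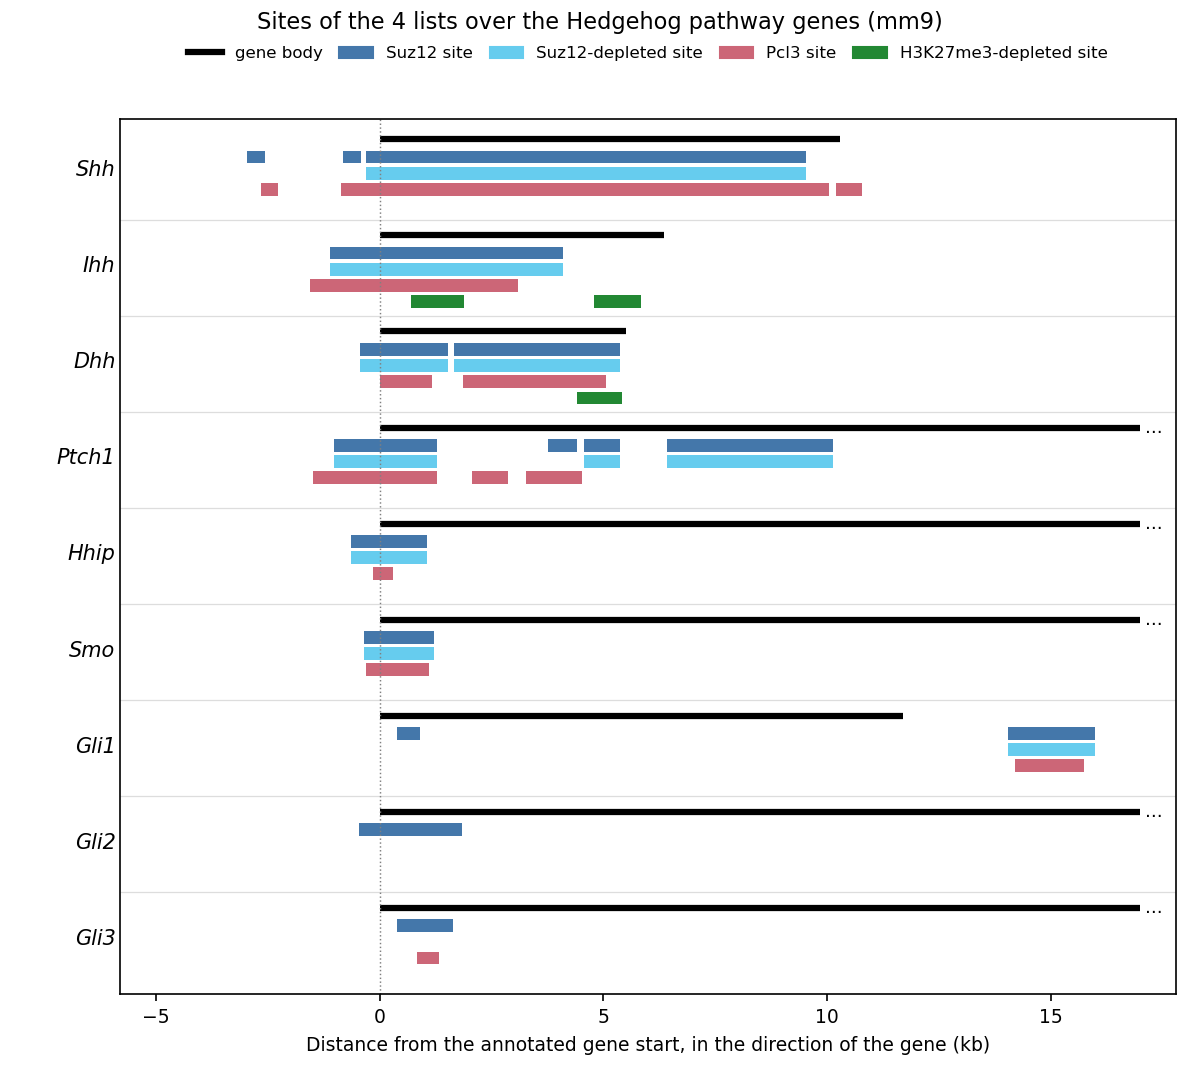
Sites of the 4 lists over the 9 genes, drawn by distance from the annotated gene start in kb in the direction of each gene, with the gene body as a black bar that is cut where it is longer. Suz12 sites run along the bodies of the 3 ligand genes and stay near the starts of Hhip, Smo, Gli2 and Gli3, and the site 15020 bp from the Gli1 start lies beyond the end of that gene.

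The 3 ligand genes had the Suz12 sites of highest rank in the set and the largest share of the gene body covered. Suz12 sites covered 92.7% of the body of Shh, 64.4% of Ihh and 94.8% of Dhh, while at least 25% was covered in 4.01% and at least 50% in 2.27% of protein-coding genes and at most 10.0% was covered in any of the other 6 members. The ligand genes are also short, at 5510 to 10287 bp, and the 4 sites of Ptch1, a gene of 64214 bp, add up to more sequence than those of Ihh or Dhh. Strength below is the rank of a site's p-value among the 8876 Suz12 sites, with the wider site first where p was written as 0. The p-values below are the calling values of the authors, recomputed by them over the whole joined site, so width and strength are not independent.

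Shh, the ligand of the floor plate and the limb bud, had a Suz12 site of 9850 bp at chr5:28784101-28793950, from 309 bp upstream of its start to 9540 bp into the gene. It ranked 24, its p-value was written as 0, and it held 1311 bp of coding exon, 635 bp of UTR and 7595 bp of intron. This site was in the depleted list and lay entirely within a Pcl3 site of 10900 bp. Weak Suz12 sites of 400 bp each followed upstream, centered at -609 bp and -2759 bp from the start with p-values of 5.57e-09 and 6.64e-08, and neither was in the depleted list. The noncoding genes 9530036O11Rik and Gm17493 share all 3 of these Suz12 sites, so the binding cannot be given to Shh alone.

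Ihh, the ligand that paces growth plate cartilage, had a single Suz12 site of 5200 bp at chr1:74994151-74999350, from 1104 bp before the start to 4095 bp after it. It ranked 149 with its p-value written as 0, was in the depleted list and shared 4200 bp with a Pcl3 site with a p-value of 1.45e-291. Dhh, the ligand of the testis and the nerve sheath, had 2 neighbouring Suz12 sites, both depleted. The wider of them, 3700 bp at chr15:98723601-98727300 over the middle and the end of the gene, ranked 317 with its p-value written as 0, and the site over the start, 1950 bp at chr15:98727451-98729400, ranked 1520 with a p-value of 1.38e-113. Each shared bases with a Pcl3 site, with a p-value of 8.12e-107 and 5.02e-24, so that at Dhh the gene body and not the start held the stronger call for both proteins.

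Ptch1, the receptor that is itself switched on by Gli proteins, had 4 Suz12 sites along its first 10123 bp. The strongest covered the annotated start at chr13:63673201-63675500, 2300 bp with a p-value of 8.03e-248 and rank 593, and it was depleted and lay within a Pcl3 site with a p-value of 4.69e-133. A second strong site of 3700 bp, at chr13:63664351-63668050 with a p-value of 1.11e-153 and rank 1075, was centered 8274 bp into the gene and covered 2 further starts of protein-coding Ptch1 transcripts. It too was depleted, but no Pcl3 site shared a base with it, which was so at 7 of the 1075 Suz12 sites that were at least as strong. Between them lay a site of 800 bp and a p-value of 2.34e-19, which was depleted, and a site of 650 bp and a p-value of 4.57e-11, which was not. The last of these, and not its depleted neighbour, was the one under a Pcl3 site, with a p-value of 9.56e-28. The depleted neighbour ended at chr13:63669900 and this Pcl3 site began at chr13:63669951, so they nearly adjoined. A further Pcl3 site of 800 bp and a p-value of 2.04e-21, centered 2474 bp into Ptch1, shared no base with any Suz12 site.

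Hhip, a membrane protein that binds and buffers the ligands, had 1 Suz12 site of 1700 bp over its start at chr8:82580851-82582550, with a p-value of 7.20e-47 and rank 3173. The site was depleted, and the Pcl3 site under it was 450 bp wide with a p-value of 7.30e-08, close to the calling threshold of 1e-07. Smo, the transducer that Ptch1 restrains, had 1 Suz12 site of 1550 bp over its start at chr6:29685351-29686900, with a p-value of 2.51e-63 and rank 2563. It was depleted as well, and a Pcl3 site of 1400 bp and a p-value of 7.71e-34 lay within it. Hhip and Smo thus had Suz12 sites of similar strength over their starts and Pcl3 sites that differed more, at ranks 5026 and 1524 of 5242.

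The 3 Gli genes differed from the other 6 members: none had a depleted Suz12 site within 5 kb of its start. Gli1, an activator and a target of the pathway, had only a weak site there, 500 bp in its first kilobase at chr10:126777751-126778250 with a p-value of 2.08e-10 and rank 7502, all of it intronic. The second site in the Gli1 window, 1950 bp at chr10:126762651-126764600 with a p-value of 5.21e-126, was depleted and shared 1550 bp with a Pcl3 site, but it was centered 15020 bp from the Gli1 start, beyond the end of the gene and inside Arhgap9. The depleted site and the Pcl3 site counted for Gli1 therefore both lie in its neighbour, and the nearest Pcl3 site to the Gli1 start was 14195 bp away.

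Gli2, the main activator of the pathway, had a single Suz12 site of 2300 bp over its start at chr1:120948351-120950650, with a p-value of 3.48e-55 and rank 2831. It covered 2 of the annotated protein-coding transcript starts and held 280 bp of UTR, 38 bp of coding exon and 1528 bp of intron. It was not in the depleted list, and of the 2831 Suz12 sites at least as strong, 7 were outside that list, the Gli2 site included. No Pcl3 site was near, the closest being 365905 bp from the Gli2 start.

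Gli3, the main repressor of the pathway, had a single Suz12 site of 1250 bp at chr13:15555451-15556700, beginning 383 bp after its annotated start, with a p-value of 1.34e-29 and rank 4210. It covered a second annotated transcript start and was not in the depleted list, as 90 of the 4210 sites at least as strong. Unlike Gli2, it held a Pcl3 site, of 500 bp and a p-value of 2.52e-09.

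Membership in the depleted list followed strength closely over all Suz12 sites, and the members were read against sites of their own strength. For this trend the paper proposes either that Pcl3 brings more Suz12 to weakly bound regions or that losses are harder to see at weaker sites. Neither was tested here. The 8876 sites were ordered by p and cut into 10 deciles. Depleted were 2.37% of the weakest decile, 48.5% of decile 4, 89.0% of decile 6 and 97.4% of decile 7. In deciles 8, 9 and 10 the share was 99.7%, 99.9% and 100%, so nearly every site of that strength was in the list. The 8 member sites in deciles 8 to 10, those of Shh, Ihh, Dhh, Smo, the starts and the inner promoter region of Ptch1, and the Arhgap9 site next to Gli1, were all depleted. The 4 member sites in deciles 1 and 2, 2 upstream of Shh and 1 each at Gli1 and Ptch1, were all outside the list, where 10.2% or less of such sites were depleted. Between these, Gli2 and Hhip fell in the same decile, 7, with p-values of 3.48e-55 and 7.20e-47. Hhip had the weaker Suz12 site of the pair and was depleted, and Gli2 was not. Gli3 in decile 6 was outside the list, and the Ptch1 site 4974 bp from the start in decile 4 was in it. A site outside the list had no significant loss by the authors' cutoff, which is not a measurement that its Suz12 was unchanged.

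**Figure D2:**
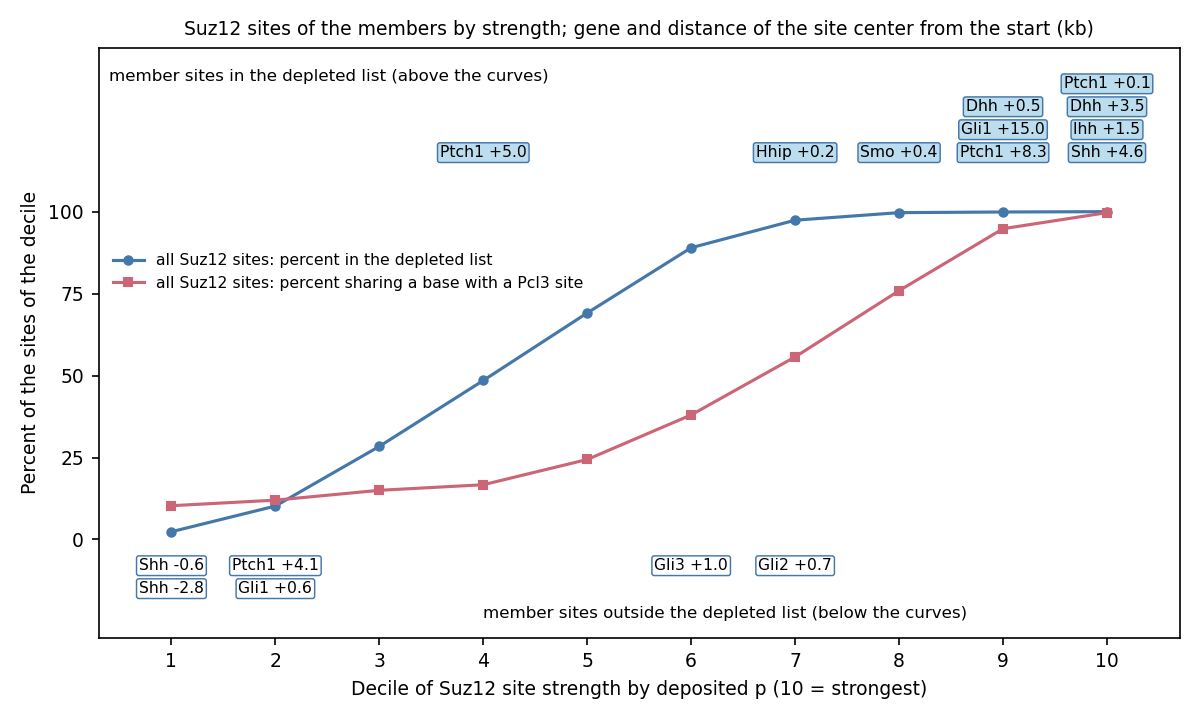
Percent of all Suz12 sites in the depleted list (blue circles) and percent sharing a base with a Pcl3 site (red squares) in each decile of strength, with the 16 Suz12 sites of the members placed at their decile, above the curves if depleted and below if not. Each label gives the gene and the distance of the site center from the start in kb, and Gli2 (decile 7) and Gli3 (decile 6) stand below the curves where 97.4% and 89.0% of the sites were depleted.

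Pcl3 sites overlapped the Suz12 sites of the members at 12 of 16, against 44.3% of all Suz12 sites. Over all Suz12 sites this share rose with strength, from 10.3% in decile 1 to 75.9%, 94.8% and 99.7% in deciles 8, 9 and 10. These 3 deciles hold 8 of the 16 member sites, so 44.3% is not a background matched for strength. The 4 without Pcl3 were the sites of Gli2, the intronic site of Gli1, and the Ptch1 sites centered 4974 bp and 8274 bp into the gene. In the deciles of these 4 sites, 55.7% (Gli2), 12% (Gli1), 16.7% and 94.8% (Ptch1) of all Suz12 sites had Pcl3. Of the 10 depleted member sites, 8 shared a base with Pcl3, compared with 60.7% of all depleted sites. Of the 6 others 4 did, compared with 14.5%. Neither of these shares is matched for strength. Those 4 were the weak sites upstream of Shh, the Ptch1 site of 650 bp and the Gli3 site. The Shh site at -609 bp lay in the same Pcl3 site of 10900 bp as the wide Shh site. The Shh site at -2759 bp shared only 100 of its 400 bp with a Pcl3 site. Sites of the same gene are thus not independent counts. In the other direction, 11 of the 13 Pcl3 sites shared a base with a Suz12 site (all Pcl3 sites, 76.9%). The 2 that did not were the Ptch1 site named above and a site of 600 bp and a p-value of 1.48e-09 at the 3' end of Shh. The strongest Pcl3 sites of Shh, Ihh, Ptch1 and Dhh ranked 49, 222, 474 and 573 of 5242, and those of Gli3 and Hhip 4193 and 5026.

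**Figure D3:**
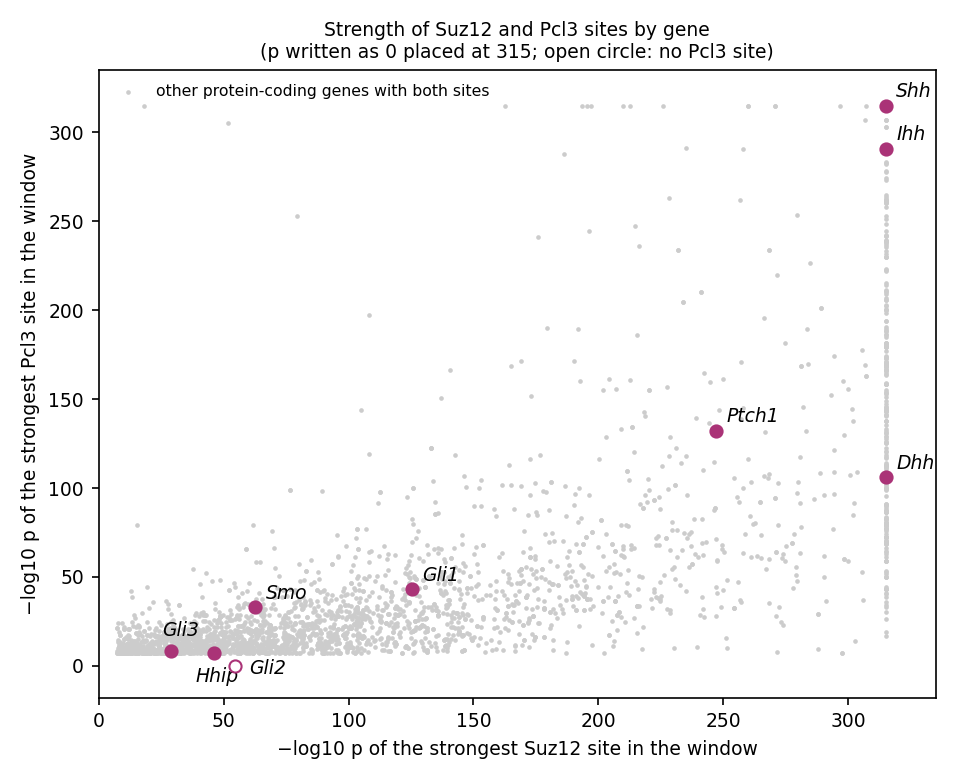
Strongest Pcl3 site against strongest Suz12 site in each gene's window, both as −log10 of the deposited p-value, with its p-value written as 0 placed at the upper end, members in purple and all other protein-coding genes that have both sites in grey. The 3 ligand genes lie at the right edge, Gli2 is the open circle without a Pcl3 site, and the Gli1 point comes from the sites inside Arhgap9.

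Decreased H3K27me3 was called at Ihh and Dhh, 2 of the 7 members with a Suz12-depleted site, and at 14.1% of all genes with such a site. At Ihh a site of 1200 bp and a p-value of 3.24e-09, at chr1:74996351-74997550, began 696 bp after the start inside the Suz12 and Pcl3 sites, and a second of 1050 bp and a p-value of 5.67e-08 lay in the last part of the gene outside both. At Dhh a site of 1000 bp and a p-value of 1.93e-08, at chr15:98723551-98724550, covered 182 bp of coding exon and 818 bp of UTR at the end of the gene, and 950 bp of it were shared with the stronger Suz12 site. None of the 3 lay over a gene start. Of the 16 Suz12 sites of the members, 2 shared bases with such a site (all Suz12 sites, 6.89%). Over all Suz12 sites this share rose with strength, to 15.3% in decile 9 and 19.4% in decile 10. The H3K27me3 calls ranked 339 and 552 at Ihh and 438 at Dhh of the 678 sites of this list. A p-value of 1e-10 was reached by 201 of the 678 and by none of these 3, so that no member is left at that limit (background 1.07%) or at 1e-12 (background 0.63%). Shh, whose Suz12 site was the strongest of the set and was depleted, had no call of decreased H3K27me3 closer than 304691 bp to its start, and Ptch1 none closer than 5576024 bp. The strongest Suz12 sites of Shh and Ptch1 are both in decile 10, where most sites shared no base with such a call.

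CpG density at the start did not order the members by their Suz12 binding. In the 1000 bp around the annotated start, the members had between 3.9 CpG per 100 bp (Shh) and 11 (Gli3), with a median of 6.5, compared with a median of 4.0 over all protein-coding genes and 6.0 over those with a Suz12 site. Shh and Dhh, at 3.9 and 4.1, lay at the 48.7th and 50.0th percentile of all genes, yet were covered by Suz12 over more than 90% of their bodies. Gli3, Ihh, Ptch1 and Smo, at 11, 10.1, 8.9 and 8.0, lay at the 95.5th, 93.1st, 88.0th and 82.6th percentile, and Gli2, Hhip and Gli1 followed with 6.5, 5.8 and 4.9. A start was called island-like if its GC content was 50% or more and its CpG exceeded 0.6 of the number that its base composition predicts, which held for 5 members (Ihh, Gli2, Gli3, Ptch1 and Smo) and for 44.2% of all genes. Of these 5, all had a Suz12 site (island-like background 40.6%), 3 a depleted site (29.7%), 4 a Pcl3 site (22.5%) and 1 an H3K27me3-depleted site (3.98%). Over the whole site rather than the start, the wide Shh site held 4.82 CpG per 100 bp and the Gli3 site 9.36.

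**Figure D4:**
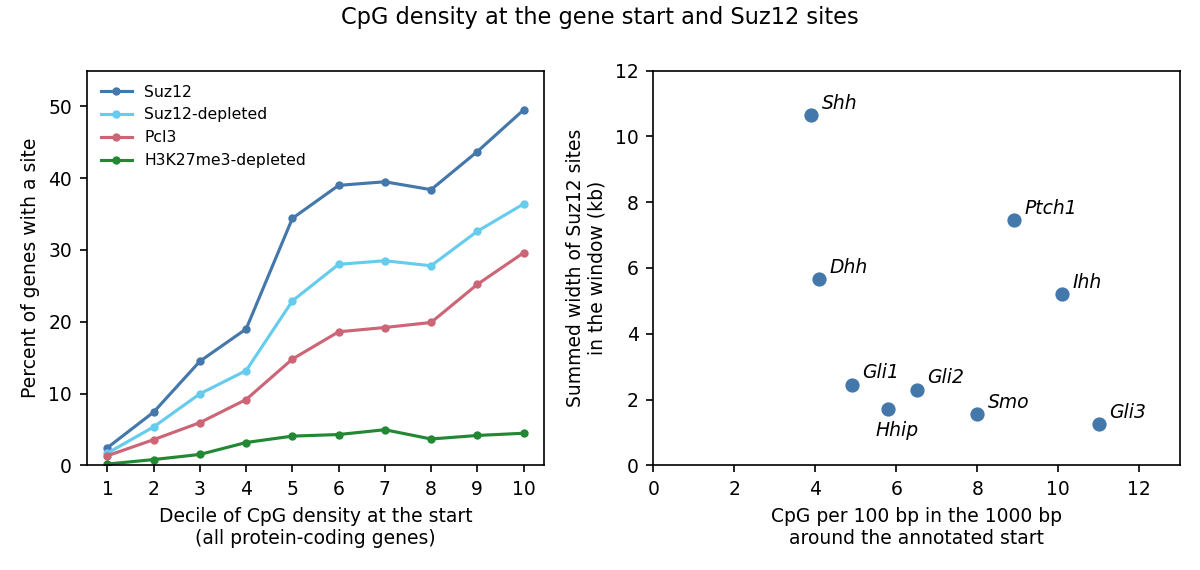
Left, percent of all protein-coding genes with a site of each list in 10 equal groups of CpG density at the start, rising for Suz12 from 2.46% to 49.5%. Right, the 9 members by CpG per 100 bp in the 1000 bp around the start and the summed width of their Suz12 sites in kb, with Shh and Dhh at the left of the panel and Gli3 at its right with the smallest sum.

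For sequence motifs, the 1000 bp around each start were searched on both strands for GCGCGC, a GC repeat that reads the same on both strands and for which overlapping matches were counted, and for GACCACCCA, the core sequence that Gli proteins recognise. GCGCGC was present at 6 members (Ihh, Gli2, Gli3, Ptch1, Hhip and Smo) and at 31.5% of all protein-coding starts, with 8 matches at Gli3 and 5 at Ptch1. The Gli2 start held 1 match and no Pcl3 site. In the 500 bp around the center of each Suz12 site, GCGCGC was found at 8 of the 16 member sites and at 37.5% of all Suz12 sites. GACCACCCA was present at 1 member, Ptch1, and at 0.814% of all starts. Around the centers of the 16 Suz12 sites it was found at 1, again in Ptch1, compared with 0.552% of all Suz12 sites. These matches are shown with their flanks on the strand of the gene, with the motif in capitals, at chr13:63674762-63674791 (motif beginning at -307 bp from the start) and chr13:63670582-63670611 (motif beginning at 3873 bp).
Ptch1 upstream of the start: tggcgcggcaGACCACCCAcgccgagggcc
Ptch1 first part of the gene: cctcagccctGACCACCCAagtcgagcagt
The former lies in the depleted Suz12 site over the Ptch1 start, and the latter in the weak Suz12 site that was not depleted. A match describes these letters and not binding of a Gli protein.

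Other genes of the pathway were taken from a list of 60 by role, of which 58 were matched in the annotation. Suz12 sites were found at 42 of them (72.4%, background 28.8%) and depleted sites at 33 (56.9%, background 20.7%). Pcl3 sites were found at 27 (46.6%, background 14.7%) and H3K27me3-depleted sites at 7 (12.1%, background 3.13%). Of the 5 genes for making and releasing the ligands (Hhat, Disp2, Scube1, Scube2 and Scube3), each had a depleted Suz12 site (background 20.7%). Pcl3 sites were found at Scube1 and Scube2 alone (background 14.7%). The strongest Suz12 sites were those of Scube3 (p-value 1.29e-95) and Scube1 (p-value 1.01e-90), which code for secreted carriers of the ligand. Of 8 co-receptors and membrane modulators, 7 had a Suz12 site (87.5%, background 28.8%) and 4 a depleted site (50.0%, background 20.7%). A Pcl3 site was found at 3 (37.5%, background 14.7%) and an H3K27me3-depleted site at 1 (12.5%, background 3.13%). The co-receptor gene Cdon and the glypican genes Gpc3 and Gpc4 had Suz12 sites that were not depleted and no Pcl3 site. The strongest Suz12 sites were those of the co-receptor gene Gas1 (p-value 3.44e-242, depleted, with Pcl3) and the glypican gene Gpc6 (p-value 5.47e-190, depleted, with Pcl3).

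Among the 22 genes of the cilium and of signal transduction, 8 had a Suz12 site (36.4%, background 28.8%) and 3 a depleted site (13.6%, background 20.7%). A Pcl3 site was found at 1 (4.55%, background 14.7%) and an H3K27me3-depleted site at 0 (background 3.13%). The strongest Suz12 sites of these genes were weaker, at Ift172 (p-value 7.24e-26) and Prkaca (p-value 5.07e-18), and both of these lay outside the gene body. The depleted site of Kif27 did too, so the depleted sites of all 3 genes lay in the flanks. Spop, the gene with Pcl3 sites, had no Suz12 site. Evc and Evc2 shared 1 site, and Sufu, the inhibitor that holds Gli proteins, had none. In contrast, 22 of 23 target or responding patterning genes had a Suz12 site (95.7%, background 28.8%), with Mycn as the gene without Suz12. Of the 23, 21 had a depleted site (91.3%, background 20.7%) and 21 a Pcl3 site (91.3%, background 14.7%). Decreased H3K27me3 was called at 5 of the 23 (21.7%, background 3.13%), the Hedgehog-responsive genes Foxf1a, Foxe1, Nkx6-1, Nkx6-2 and Olig2. Of the other roles, Disp2 and Lrp2 had such a call. Nkx2-2, a transcription factor of the ventral neural tube, had the site of highest rank in the list, 12200 bp at rank 6. Many of these responding genes encode developmental transcription factors and were put on the list with results of these data known.

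**Figure D5:**
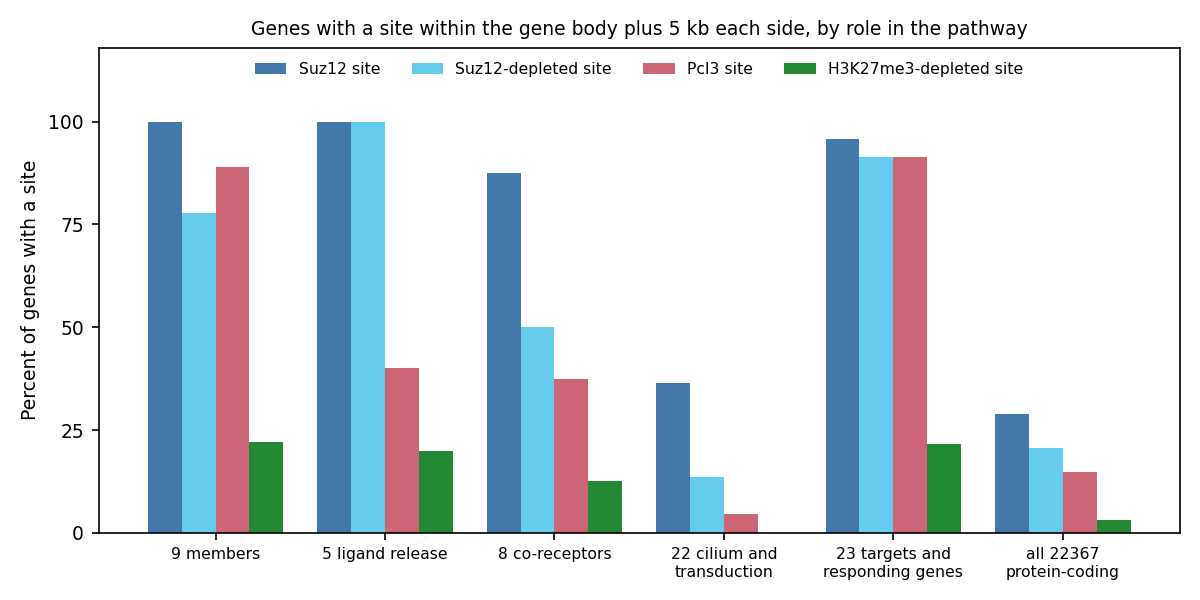
Percent of genes with a site of each of the 4 lists for the 9 members, for the 58 other pathway genes by role, and for all 22367 protein-coding genes, with a site counted within the gene body plus 5 kb on each side. The 22 genes of the cilium and of transduction lie lowest among the roles, at 36.4% for Suz12, and the 9 members and the 5 genes of ligand release reach 100%.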

How the data were processed

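The series holds 10 libraries, 6 ChIP and 4 input, and 4 site lists. Per the study's methods, the authors aligned single-end reads of 30 nucleotides uniquely to mm9 with bowtie (version not given in the sources used here), scaled paired libraries to equal background, tested 400 bp windows with the Skellam distribution at 1e-07, joined overlapping windows and recomputed p. The deposited p-value of each site is the only measurement, and is written as 0 at 435 Suz12 and 208 Pcl3 sites. In the Suz12-depleted list these values equal those of the Suz12 list at all 5722 sites, so no size of loss is given. Unique alignment leaves out repeated sequence, and equal scaling assumes a like background in both libraries.

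Sites were assigned to GENCODE vM1 genes (NCBIM37, the same assembly as mm9) in windows of the gene body plus 5 kb, coordinates being 1-based, and counted over all protein-coding genes as background. CpG and motifs were read from that genome. The promoter table of another build was not used. No test was made, since the Suz12 and H3K27me3 lists come from 1 library a condition, and how the 2 Pcl3-TAP libraries entered their list is not given in the sources used here, and percentages over genes or sites describe these libraries only. The counting functions were tested on simulated data and differed from plain searches at 0 of 400 windows. The members and gene lists were chosen with earlier results of these data known. Named were the 9 members, and of the other pathway genes those with an H3K27me3-depleted site and the 2 with the smallest Suz12 p-value in each role. Others were named after their values were seen, where a count was small. Alternatives were other windows, site centers, stricter p-values, center distances, CpG spans, transcript starts and ranking by width. Software was samtools 1.23.1, Python 3.11.15 and its packages pysam 0.24.0, matplotlib 3.10.9, pandas 2.3.3, numpy 2.4.6 and scipy 1.17.1.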

Additional observations from a re-analysis of the deposited data

How the results depend on the processing

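Of 32 recomputed counts of members or of their Suz12 sites, 30 stayed within 1.5 times the reported count. The exceptions were the members with an H3K27me3-depleted site, which fell from 2 to 0 with deposited p-values of at most 1e-10 (background 1.07%) and to 0 with at most 1e-12 (background 0.63%), because fewer sites are then in the list. The members with a Suz12 site stayed at 9 under each of the 7 alternatives. The background was 25.1% with the gene body alone, 26.8% with 2 kb of flank and 24.6% around the start. It was 25.3% at 1e-10 and 23.6% at 1e-12, and was not computed for 10 kb of flank or site centers. The members with a depleted site were 6 with the gene body alone (background 18.2%), with 2 kb of flank (background 19.2%) and around the start (background 17.5%). There the site inside Arhgap9 is no longer counted for Gli1. Otherwise they were 7. The p-values of the depleted list are binding values, so the stricter limits select strong binding and cannot test the call of loss. Those with a Pcl3 site ranged from 6, with p-values of at most 1e-10 (background 11.7%) or 1e-12 (background 10.3%), to 8. Of the 16 Suz12 sites, 11 had a depleted center within 2 kb and 10 within 500 bp, and 13 and 10 had a Pcl3 center within these distances. The share of all Suz12 sites under these center rules was not computed. These counts therefore show only how the member counts vary with the rule. Of 69 recomputed background percentages, densities, distances and ranks, 44 moved, 13 of them ranks by width. Another 8 of the 44 were distances taken from a different transcript start, which are positions and have no counting interval. The others moved beyond their counting interval. No paired analysis was possible because no result comes from a test across samples, and no library could be left out. The lists give no depth, so a site that was not called may lie below what these libraries could show.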
